A study of Mus musculus with 15 samples.

Results

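The genes described here are 40 mouse genes that act in G2 and mitosis, taken by name and looked up by symbol in a table of 51912 gene identifiers. All 40 were found, each with 1 identifier, and all 40 were among the 15692 genes with enough counts to be tested. They fall into 7 roles: entry into mitosis (Cdk1, Ccna2, Ccnb1, Ccnb2, Ccnf, Cdc25b, Cdc25c), transcription (Foxm1, Mybl2), Polo and Aurora kinases with the chromosomal passenger complex (Plk1, Aurka, Aurkb, Birc5, Incenp, Cdca8), kinetochore and spindle checkpoint (Bub1, Bub1b, Bub3, Mad2l1, Ttk, Cenpa, Cenpe, Cenpf, Ndc80, Nuf2), spindle motors and cytokinesis (Kif11, Kif20a, Kif23, Kif2c, Tpx2, Hmmr, Nusap1, Prc1, Anln), the anaphase-promoting complex with separase (Cdc20, Ube2c, Espl1, Pttg1) and chromosome structure (Top2a, Mki67).

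As background, a cell leaves G2 when the kinase CDK1, bound to cyclin A or cyclin B, is freed of inhibitory phosphates by CDC25 phosphatases. Polo and Aurora kinases then act on the spindle and the centromere, the spindle checkpoint holds anaphase until every chromosome is attached, and the anaphase-promoting complex with CDC20 destroys cyclin B and securin. Transcripts of most of these genes peak in G2 and mitosis, where the MuvB complex, B-MYB and FOXM1 bind their promoters. In the B lineage, activated B cells and plasmablasts divide rapidly, and mature plasma cells leave the cell cycle.

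The 15 libraries came from a culture of wild-type mouse B cells, and the sources used here give neither strain nor age. The D6 group holds unsorted cells at day 6 of growth on 40LB feeders with interleukin-4 at 100 ng/ml. 40LB cells are fibroblasts engineered to display CD40 ligand and to make BAFF, which drive B cells to divide and switch class. The other 4 groups were sorted at day 8, after the cells had been moved off the feeders into RPMI medium with no stimulus for 2 more days: IgE iGC, IgG1 iGC, IgE PC and IgG1 PC, where PC stands for plasma cell and iGC is the labels' name for the cells of each isotype that were not plasma cells. Each group has 3 libraries described as independent biological replicates, with no statement of which animal or culture each came from, so p-values measure the spread between these libraries. Day, feeder contact, the medium without stimulus and sorting all differ between D6 and the day 8 groups and cannot be told apart.

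Poly(A) RNA was sequenced as 76 base single-end, strand-specific reads, and the libraries hold about 17740900 to 54068000 expected counts, the read counts per gene that the RSEM program estimates. Levels are given as CPM, counts scaled to a common library total with the TMM method, and comparisons between genes use TPM, which also corrects for transcript length. IgG1 PC replicate 1 stood apart from the other 2 of its group, and IgE iGC replicate 3 was the shallowest. The plasma cell markers Sdc1, Prdm1, Xbp1, Irf4 and Jchain summed to 9827 to 10913 TPM in IgE PC and 6324 to 7658 in IgG1 PC, against 605 to 678 in IgE iGC, 317 to 328 in IgG1 iGC and 343 to 366 in D6. Jchain was the largest part of the sum in both plasma cell groups. The B cell antigen receptor component Cd79a was present in every library, at 612 to 665 TPM in IgE PC, 1227 to 1284 in IgG1 PC and 861 to 2002 in the other groups. The B cell factor Pax5 measured 21.9 to 26.1 TPM in IgE PC, 49.6 to 86.1 in IgG1 PC and 212 to 288 in the other groups. T cell markers summed to at most 15.3 TPM and myeloid markers to at most 4.01 TPM in any library.

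The promoters of these genes are shown because the shared control of G2 and mitosis genes runs through short elements just before the start site. The letters searched, on both strands, were TTTGAA, the core of the cell cycle genes homology region bound by MuvB, its variant TTCGAA, and CCAAT, the box bound by NF-Y; none of them overlaps another in its letters. In the RefSeq promoter table for GRCm38.p6, 35 promoters of 33 of the 40 genes were listed. Of these 35, 37.1% held TTTGAA within 250 bases before the start, against 16.0% of all 32851 promoters, and 74.3% held CCAAT, against 33.9%. At least 2 CCAAT boxes were present in 48.6% and 10.1%, and a CCAAT box together with TTTGAA or its variant in 37.1% and 6.02%. A match is a description of the letters and not a measured site. Neither element was found for Mad2l1, Birc5, Ndc80, Nuf2, Anln, Nusap1, Mybl2 and Pttg1, which says only that these letters are not in those windows. The stretches that hold the matches are given here for 6 genes with both elements, read 5′ to 3′ on the gene's strand, with a match to any of the 3, in either orientation, in capitals.

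Cdk1 (chr10:69352913-69353130, minus strand): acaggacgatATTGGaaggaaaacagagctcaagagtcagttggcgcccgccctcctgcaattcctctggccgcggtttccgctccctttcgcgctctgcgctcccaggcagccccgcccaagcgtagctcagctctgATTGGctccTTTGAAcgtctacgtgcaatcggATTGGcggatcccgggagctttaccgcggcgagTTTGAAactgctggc
Ccnb2 (chr9:70421561-70421731, minus strand): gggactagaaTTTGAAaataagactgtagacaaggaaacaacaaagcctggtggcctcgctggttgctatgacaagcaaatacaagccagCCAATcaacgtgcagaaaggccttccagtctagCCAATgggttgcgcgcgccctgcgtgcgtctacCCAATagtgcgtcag
Cdc20 (chr4:118437344-118437406, minus strand): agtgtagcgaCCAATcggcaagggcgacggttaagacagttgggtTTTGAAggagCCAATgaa
Bub1b (chr2:118598013-118598112, plus strand): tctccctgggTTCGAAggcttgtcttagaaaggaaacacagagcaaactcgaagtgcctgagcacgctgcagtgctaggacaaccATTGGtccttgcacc
Top2a (chr11:99024197-99024426, minus strand): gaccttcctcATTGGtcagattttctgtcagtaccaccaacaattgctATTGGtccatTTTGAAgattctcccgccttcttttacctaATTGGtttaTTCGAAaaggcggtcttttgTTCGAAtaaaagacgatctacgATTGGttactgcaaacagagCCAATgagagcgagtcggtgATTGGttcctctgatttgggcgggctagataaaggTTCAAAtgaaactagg
Mki67 (chr7:135716462-135716577, minus strand): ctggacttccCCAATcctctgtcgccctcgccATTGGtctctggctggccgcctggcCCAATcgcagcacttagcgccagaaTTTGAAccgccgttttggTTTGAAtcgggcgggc

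Cdk1, Top2a and Mki67 each carry more than 1 homology region core or variant, Cdc20 has 1 core between a pair of CCAAT boxes, and Bub1b has the variant in place of the core. The starts are those of RefSeq. By GENCODE exons, the last 26 bases of the Cdk1 stretch and the last 9 of the Cdc20 stretch are exonic. They hold the last Cdk1 core and the last Cdc20 CCAAT box. Ccnf and Bub3 also had both elements but were not printed, because 75 and 67 bases of their stretches are exonic.

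The 40 genes were not expressed at 1 common level. Per length, Top2a, the topoisomerase that untangles sister chromatids, had the highest mean TPM in IgE iGC (229.9 ± 18.1, SD, n = 3), IgG1 iGC (209.8 ± 8.6) and IgG1 PC (162.6 ± 29.9). Mki67, the Ki-67 protein that coats mitotic chromosomes, was first in IgE PC (135.4 ± 3.7), and Bub3, a checkpoint protein, was first in D6 (113.4 ± 4.55). Cdc25c and Anln, which encodes the cleavage furrow scaffold anillin, were the lowest pair in each of the 4 day 8 groups, at mean TPM of 3.37 to 8.59.

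Across groups, D6 had the lowest mean CPM for 36 of the 40 genes and IgE PC for the other 4, which were Bub3, Ccnf, Mybl2 and Pttg1. The highest mean was in IgG1 PC for 20 genes, in IgE iGC for 17, in D6 for Mybl2 and Pttg1, and in IgE PC for Mki67. In 2 of the 5 groups 1 library was the highest for nearly every gene. IgE PC replicate 3 was the highest of its group for 39 of the 40 genes and replicate 1 the lowest for 36, and IgE iGC replicate 3 was the highest for 38. IgG1 PC replicate 1 was the lowest of its group for 29, while replicates 2 and 3 were the highest for 17 and 20. In D6 and IgG1 iGC the order was mixed, and no replicate was the highest for more than 20 and 22 genes. The median coefficient of variation over the 40 genes was 3.94% in D6, 6.6% in IgE iGC, 3.77% in IgG1 iGC, 13.8% in IgE PC and 9.12% in IgG1 PC.

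**Figure D1:**
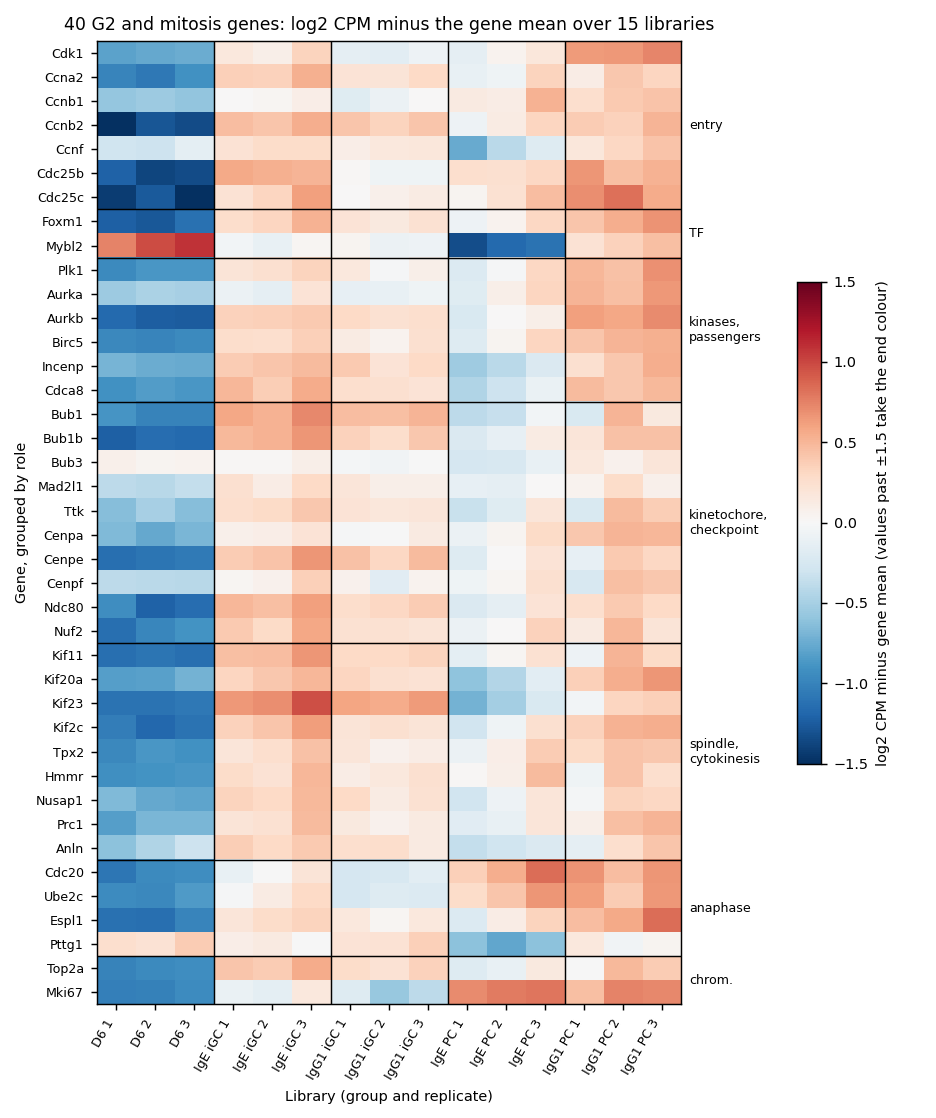
Each row is a gene, ordered by role, each column a library, and the colour is log2 CPM minus the gene's mean over the 15 libraries. The 3 D6 columns are the lowest for most genes, Mybl2 runs the other way, and the IgE PC columns differ among themselves, with replicate 3 the highest for 39 genes.

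D6 was first compared with each population sorted 2 days later. Nearly all members were higher at day 8. By edgeR's quasi-likelihood test with Benjamini-Hochberg adjustment over all genes tested, 37 of 40 were higher in IgE iGC than in D6, where 32.8% of all genes tested were, and 2 were lower, where 36.3% of all genes were. In IgG1 iGC 37 were higher (all genes 32.4%) and 1 lower (all genes 36%). In IgE PC 35 were higher (all genes 36.9%) and 3 lower (all genes 39.5%), and in IgG1 PC 37 were higher (all genes 35.9%) and 2 lower (all genes 36%). The median log2 fold changes of the members were 1.20, 1.04, 0.93 and 1.3 in that order, beside medians of all genes tested between -0.043 and 0.0069. All 4 comparisons share the D6 libraries. In bulk libraries, fewer dividing cells and less RNA per dividing cell cannot be told apart.

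Among the entry genes, Ccnb2, a B-type cyclin (chr9:70407692-70421547), measured 12.8, 15.5 and 14.9 CPM in the 3 D6 libraries and 52.5, 50.4 and 55.2 in IgE iGC. It measured 50.5, 47.7 and 50.8 in IgG1 iGC, 36.1, 41.4 and 47.5 in IgE PC and 49.3, 48.2 and 54.1 in IgG1 PC. Every day 8 library lay more than 2-fold above every D6 library, and its log2 fold changes against D6 were 1.87 ± 0.095 (SE), 1.78 ± 0.094, 1.53 ± 0.094 and 1.81 ± 0.094 in the same order (edgeR, largest adjusted p 5.89e-10). Cdk1, the mitotic kinase itself (chr10:69335146-69352938), measured 27.2, 27.7 and 28.3 CPM in D6, 53.0, 50.4 and 59.6 in IgE iGC, 43.0, 42.2 and 44.8 in IgG1 iGC, 43.2, 48.9 and 53.4 in IgE PC and 73.7, 74.0 and 78.6 in IgG1 PC. The D6 libraries were the lowest and the IgG1 PC libraries the highest, with no overlap between either and the rest. Ccnb1, the main mitotic cyclin (chr13:100778650-100786570), measured 32.7, 33.3 and 32.3 CPM in D6, 48.8, 49.8 and 52.0 in IgE iGC, 42.9, 45.7 and 48.7 in IgG1 iGC, 53.4, 52.7 and 69.8 in IgE PC and 58.0, 63.6 and 65.6 in IgG1 PC. All its day 8 libraries lay above D6, and the 2 plasma cell groups overlapped each other.

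The 2 CDC25 phosphatases of the list had the largest rises from D6 to IgG1 PC. Cdc25c measured 2.9, 3.25 and 2.77 CPM in D6, 9.05, 9.69 and 11.9 in IgE iGC, 7.82, 8.16 and 8.43 in IgG1 iGC, 7.98, 9.13 and 10.7 in IgE PC and 12.6, 13.7 and 11.5 in IgG1 PC, a log2 fold change of 2.08 ± 0.13 for the last against D6 (edgeR, adjusted p = 1.12e-09) and of 1.64 for IgE PC. Cdc25b (chr2:131186949-131198497) measured 53.2, 47.7 and 48.7 CPM in D6, 183, 179 and 176 in IgE iGC, 125, 118 and 118 in IgG1 iGC, 147, 146 and 153 in IgE PC and 196, 169 and 178 in IgG1 PC, a log2 fold change of 1.86 ± 0.062 for IgG1 PC (adjusted p = 1.07e-12). For both phosphatases no day 8 library overlapped a D6 library. Ccnf, the substrate receptor of a ubiquitin ligase, was higher in IgE iGC, IgG1 iGC and IgG1 PC but not called in IgE PC, where its log2 fold change was -0.19 ± 0.11.

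Both transcription regulators changed, in opposite directions. Foxm1, a forkhead factor that drives G2 and mitosis genes (chr6:128362967-128376146), measured 26.2, 25.5 and 28.3 CPM in D6, 73.7, 76.6 and 87.9 in IgE iGC, 71.0, 67.7 and 71.8 in IgG1 iGC, 58.2, 63.6 and 76.2 in IgE PC and 81.7, 89.5 and 98.0 in IgG1 PC. Mybl2, which encodes the MuvB partner B-MYB and is itself transcribed from the start of S phase (chr2:163054687-163084688), measured 60.6, 70.8 and 76.7 CPM in D6, 35.0, 33.5 and 36.9 in IgE iGC, 37.1, 33.9 and 34.3 in IgG1 iGC, 14.4, 16.1 and 16.7 in IgE PC and 41.8, 45.9 and 49.5 in IgG1 PC. The D6 libraries were thus the lowest for Foxm1 and the highest for Mybl2. Mybl2 changed by log2 fold changes of -0.98 ± 0.087 in IgE iGC, -0.98 ± 0.087 in IgG1 iGC, -2.14 ± 0.092 in IgE PC and -0.60 ± 0.086 in IgG1 PC (edgeR, largest adjusted p 1.42e-05), and Foxm1 by 1.57, 1.40, 1.31 and 1.75. In a ratio picked after the levels were seen, the TPM of Mybl2 was 3.53 to 4.19 times that of Foxm1 in the D6 libraries, 0.578 to 0.752 times in the iGC and IgG1 PC libraries, and 0.294 to 0.387 times in the IgE PC libraries.

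All 6 genes for the kinases and the passenger complex were higher than in D6 in each of the 4 comparisons. Plk1, the Polo kinase (chr7:122159439-122169873), measured 21.0, 22.2 and 22.3 CPM in D6, 46.7, 48.3 and 51.4 in IgE iGC, 45.3, 40.4 and 43.4 in IgG1 iGC, 35.4, 40.3 and 50.8 in IgE PC and 57.5, 55.1 and 65.5 in IgG1 PC. Birc5, the passenger protein survivin (chr11:117849251-117855743), measured 17.9, 17.5 and 18 CPM in D6, 41.9, 41.6 and 44.7 in IgE iGC, 38.0, 36.2 and 41.2 in IgG1 iGC, 30.6, 36.0 and 43.8 in IgE PC and 46.7, 49.9 and 50.6 in IgG1 PC. For both, D6 was below all other libraries and IgE PC spread over a wider range than either iGC group. Aurkb, the Aurora kinase of the passenger complex, had log2 fold changes of 1.58, 1.48, 1.18 and 1.85, and its scaffold Incenp had 1.16, 1.04, 0.36 and 1.13. With total-count scaling in place of TMM, Aurka, Incenp and Cdca8 were not called in IgE PC against D6, and the Incenp value turned to -0.18.

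Of the 10 kinetochore and checkpoint genes, 9 were higher in each of the 4 comparisons and Bub3 was the exception. Bub3 measured 116 to 118 CPM in D6 and was called only in IgE PC, where it was lower (log2 fold change -0.26 ± 0.051, edgeR adjusted p = 2.88e-04). Bub1b, which encodes the checkpoint kinase BubR1, had the largest rise of this group in IgE iGC (1.73) and measured 1.52, 1.11 and 1.54 in the other 3. Mad2l1, the checkpoint protein MAD2, had smaller log2 fold changes of 0.61, 0.51, 0.31 and 0.53. With total-count scaling its IgE PC value turned to -0.23 and was called lower. In that comparison and with that scaling, Ttk, a checkpoint kinase, turned from 0.49 to -0.044 and Cenpf, a kinetochore protein, from 0.48 to -0.056, and these 2 and Bub1 were not called. The rise of Cenpf in IgG1 iGC (0.39 ± 0.15, edgeR adjusted p = 0.0287) was not called with total-count scaling, without the count filter, or when any D6 replicate or IgG1 iGC replicate 1 or 3 was left out, and its rise in IgG1 PC was not called with total-count scaling.

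The 9 spindle and cytokinesis genes were all higher than in D6, except that Anln was not called in IgE PC (log2 fold change 0.16 ± 0.12, and -0.37 with total-count scaling). With total-count scaling Kif20a turned from 0.39 to -0.14 in IgE PC, and Kif20a, Kif23, Nusap1 and Prc1 were not called there. Kif23, a motor of the central spindle (chr9:61915905-61946774), measured 27.5, 27.5 and 28.2 CPM in D6, 92.6, 95.7 and 115 in IgE iGC, 89.3, 86.7 and 92.2 in IgG1 iGC, 36.3, 41.4 and 50.4 in IgE PC and 57.5, 73.8 and 75.7 in IgG1 PC. The iGC libraries were the highest, then IgG1 PC, then IgE PC, then D6, with no overlap between these 4 levels. Its log2 fold change in IgE iGC, 1.86 ± 0.12 (edgeR, adjusted p = 2.97e-09), was the second largest of the 40 genes.

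Among the anaphase genes, Cdc20, the activator of the anaphase-promoting complex (chr4:118432901-118437352), measured 32.3, 35.4 and 35.9 CPM in D6, 63.8, 68.6 and 78.6 in IgE iGC, 57.8, 58.3 and 61.5 in IgG1 iGC, 88.1, 101 and 123 in IgE PC and 109, 94.7 and 109 in IgG1 PC. Its log2 fold changes against D6 were 1.02, 0.78, 1.59 and 1.59, larger in the plasma cells than in the iGC cells. Pttg1, securin, the inhibitor of separase (chr11:43420250-43426251), ran against the rest. It measured 12.7, 12.4 and 13.9 CPM in D6, 11.4, 11.7 and 10.6 in IgE iGC, 12.3, 12.3 and 13.6 in IgG1 iGC, 6.97, 6.19 and 6.94 in IgE PC and 11.9, 10.3 and 11.0 in IgG1 PC. Only the IgE PC libraries lay well apart, at log2 fold change -0.96 ± 0.085 (edgeR, adjusted p = 4.99e-08). The lower calls in IgE iGC (-0.20 ± 0.082, adjusted p = 0.0396) and IgG1 PC (-0.24 ± 0.082, adjusted p = 0.0175) did not pass with immunoglobulin genes left out, without the count filter or with only the groups compared in the fit. The first was also lost without D6 replicate 1 or 3 or any IgE iGC replicate, and the second without D6 replicate 3 or IgG1 PC replicate 2.

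For chromosome structure, Top2a (chr11:98992943-99024189) measured 199, 205 and 209 CPM in D6, 528, 519 and 583 in IgE iGC, 482, 463 and 505 in IgG1 iGC, 347, 368 and 439 in IgE PC and 396, 556 and 518 in IgG1 PC. Mki67 (chr7:135689784-135716361) measured 409.9, 412 and 433 CPM in D6, 779, 754 and 934 in IgE iGC, 731, 563 and 636 in IgG1 iGC, 1369.6, 1436 and 1461 in IgE PC and 1143, 1399.9 and 1379 in IgG1 PC. The mean of Top2a was highest in IgE iGC, and every plasma cell library of Mki67 lay above every other library. Mki67 had the largest log2 fold change of the 40 genes in IgE PC against D6, 1.77 ± 0.10 (edgeR, adjusted p = 3.24e-10), and measured 0.97, 0.62 and 1.64 in IgE iGC, IgG1 iGC and IgG1 PC. The ratio of Mki67 to Top2a in TPM, also picked after the levels were seen, was 0.733 to 0.779 in D6, 0.452 to 0.596 in the iGC libraries, 1.27 to 1.5 in IgE PC and 0.807 to 0.879 in IgG1 PC.

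**Figure D2:**
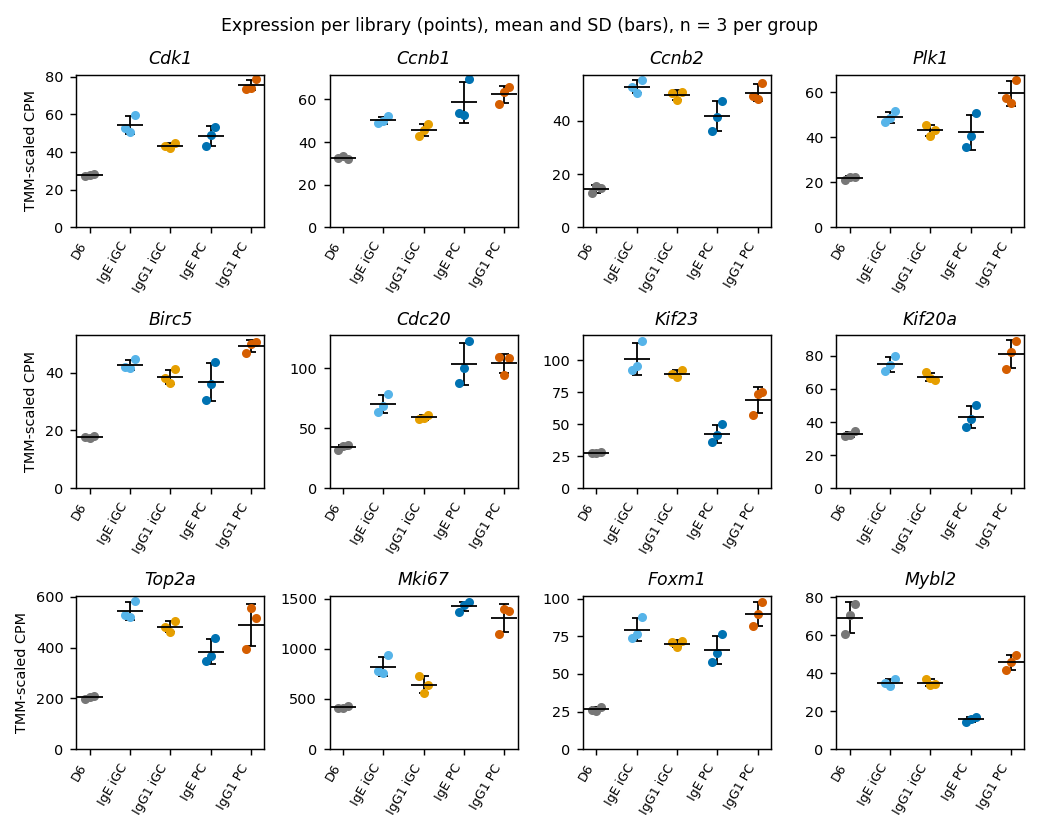
Each panel shows 1 gene's TMM-scaled CPM (vertical axis, from 0) in the 5 groups, with points for the 3 libraries and bars for the mean and SD. Cdk1 and most others are lowest in D6, Mybl2 is highest there, and Mki67 is highest in the plasma cells.

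Markers of the feeder cells also differed in these comparisons. The 10 feeder fibroblast markers summed to 140.1 to 189.7 TPM in D6, 30 to 38.2 in IgE iGC, 25.5 to 36.4 in IgG1 iGC, 6.42 to 10.01 in IgE PC and 28.4 to 58.5 in IgG1 PC, and 6 of the 10 were higher in every D6 library than in any day 8 library. Postn was listed at 0 in all groups except IgG1 PC, where it reached 0.02 TPM. Their part in the D6 comparisons was not tested. With total-count scaling, the IgE PC against D6 split changed from 35 higher and 3 lower to 24 higher and 6 lower. The all-gene median moved from -0.043 to -0.57, so that the members' median of 0.39 lay above it by a similar amount.

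Among the cells sorted as iGC, the isotypes differed little in these genes. Only Cdc25b (log2 fold change 0.57 ± 0.06, adjusted p = 4.48e-05) and Cdk1 (0.32 ± 0.074, adjusted p = 0.0213) were higher in IgE iGC by edgeR's test, 2 of 40 where 1.99% of all genes were called higher. None was lower (edgeR), where 1.88% of all genes were, and at an unadjusted p under 0.05 1 was lower and 9 were higher. DESeq2 called 5 higher and 0 lower, and it also called more of all genes, 922 in both directions together. For Cdc25b, IgE iGC measured 176 to 183 CPM and IgG1 iGC 118 to 125, a gap larger than the range of either group. The Cdk1 call was lost when any 1 of 5 libraries was left out, IgE iGC replicate 1 or 3 or any IgG1 iGC replicate. The members' median log2 fold change was 0.16 beside 0.0077 over all genes, and 38 of the 40 estimates were above 0. All 3 IgE iGC libraries lay above all 3 IgG1 iGC libraries for 30 genes. Neither the share of all genes above 0 nor their share without overlap was counted, so these 2 counts have no background to be read against. Leaving out IgE iGC replicate 3, the highest of its group for 38 genes and the shallowest library, gave a median of 0.11.

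The plasma cells were then compared with the iGC cells of the same isotype. In IgE cells most of these genes were lower in the plasma cells: 26 of 40 were lower in IgE PC than in IgE iGC (all genes 33.6%) and 4 were higher (all genes 30.5%), by edgeR's test with Benjamini-Hochberg adjustment. In IgG1 cells 20 were higher in the plasma cells (all genes 30.1%) and 2 lower (all genes 29%). The members' median log2 fold change was -0.33 in IgE cells (all genes -0.078) and 0.24 in IgG1 cells (all genes 0.013). These splits depend on scaling: with total-count scaling the IgE split became 1 higher and 37 lower and the IgG1 split 9 higher and 6 lower, while the median of all genes moved to -0.55 and -0.22 and the members' median to -0.80 and 0.0077.

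The 2 steps share no library, so their calls can be set side by side. The share of all genes with each pair of calls was not counted, so the counts below only describe the members. Lower in IgE cells and higher in IgG1 cells were 8 genes, Aurkb, Bub3, Cdc25b, Cdca8, Foxm1, Kif20a, Kif2c and Mybl2. Another 16 were lower in IgE cells and not called in IgG1 cells, among them Ccna2, Ccnb2, Top2a and Bub1b, and 8 were higher in IgG1 cells and not called in IgE cells, which were Aurka, Birc5, Cdc25c, Cdk1, Cenpa, Espl1, Plk1 and Tpx2. Higher in both were Ccnb1, Cdc20, Mki67 and Ube2c, lower in both were Kif23 and Pttg1, and Cenpf and Hmmr were called in neither. With total-count scaling, Ccnb1 and Ube2c changed sign in IgE cells, and Bub3 and Cdca8 changed sign in IgG1 cells. Of the 8 genes with opposite calls, only Cdc25b kept its IgG1 rise under that scaling, and the IgG1 rises of Ccnb1, Plk1, Birc5 and Tpx2 were lost as well. The IgE fall of Foxm1 was not called with immunoglobulin genes left out, with only the groups compared, or without IgE iGC replicate 3 or IgE PC replicate 1 or 2. Nuf2 lost its IgE fall in the same fits, and Prc1 without any 1 of these 3 libraries. Ttk lost its fall without any 1 of these libraries or IgE iGC replicate 2, and with immunoglobulin genes left out. Ccna2 lost its fall with only the groups compared and without IgE PC replicate 1. The IgG1 rise of Kif20a was lost without IgG1 iGC replicate 2 or 3 or IgG1 PC replicate 2 or 3. That of Kif2c was lost by DESeq2 and without any of these 4 libraries or IgG1 iGC replicate 1, that of Cdca8 without IgG1 iGC replicate 3, and that of Bub3 without the count filter, with only the groups compared or without IgG1 PC replicate 3.

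Mki67 and Cdc20 had the largest rises in both isotypes. For Mki67 the IgE PC libraries, at 1369.6 to 1461 CPM, lay above the IgE iGC libraries, at 754 to 934 (log2 fold change 0.79 ± 0.10, edgeR adjusted p = 4.74e-06), and the IgG1 PC libraries, at 1143 to 1399.9, above the IgG1 iGC libraries, at 563 to 731 (1.02 ± 0.10, adjusted p = 5.82e-07). For Cdc20 the log2 fold changes were 0.57 ± 0.11 in IgE cells (adjusted p = 2.19e-04) and 0.82 ± 0.11 in IgG1 cells (adjusted p = 1.00e-05). Ube2c, the ubiquitin-conjugating enzyme of the anaphase-promoting complex, and Ccnb1, a substrate of that complex, had 0.33 and 0.22 in IgE cells and 0.77 and 0.45 in IgG1 cells. The Ccnb1 rise in IgE cells was not called without the count filter or with only the groups compared. It was also lost when any IgE iGC replicate or IgE PC replicate 3 was left out, and that of Ube2c without IgE iGC replicate 1. With total-count scaling Ccnb1 was called lower in IgE cells, and Ube2c and Cdc20 were not called there. The IgG1 rise of Ccnb1 was not called with that scaling.

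The largest falls in IgE cells were those of Kif23 and Mybl2. Kif23 fell from 92.6 to 115 CPM in IgE iGC to 36.3 to 50.4 in IgE PC, a log2 fold change of -1.24 ± 0.12 (edgeR, adjusted p = 1.99e-07), and in IgG1 cells from 86.7 to 92.2 to 57.5 to 75.7, -0.37 ± 0.12 (adjusted p = 0.0125). The IgG1 fall was not called without IgG1 PC replicate 1. Mybl2 fell from 33.5 to 36.9 CPM to 14.4 to 16.7 in IgE cells, -1.16 ± 0.092 (adjusted p = 1.88e-08), and rose from 33.9 to 37.1 to 41.8 to 49.5 in IgG1 cells, 0.38 ± 0.087 (adjusted p = 0.00149). In neither isotype did the plasma cell libraries of Mybl2 overlap the iGC libraries, and the IgG1 rise was not called with total-count scaling. Pttg1 fell in both, by log2 fold changes of -0.75 ± 0.086 and -0.21 ± 0.082 (adjusted p = 1.38e-06 and 0.0384), and the smaller fall was lost without the count filter, with only the groups compared, or without IgG1 iGC replicate 3 or IgG1 PC replicate 2 or 3.

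**Figure D3:**
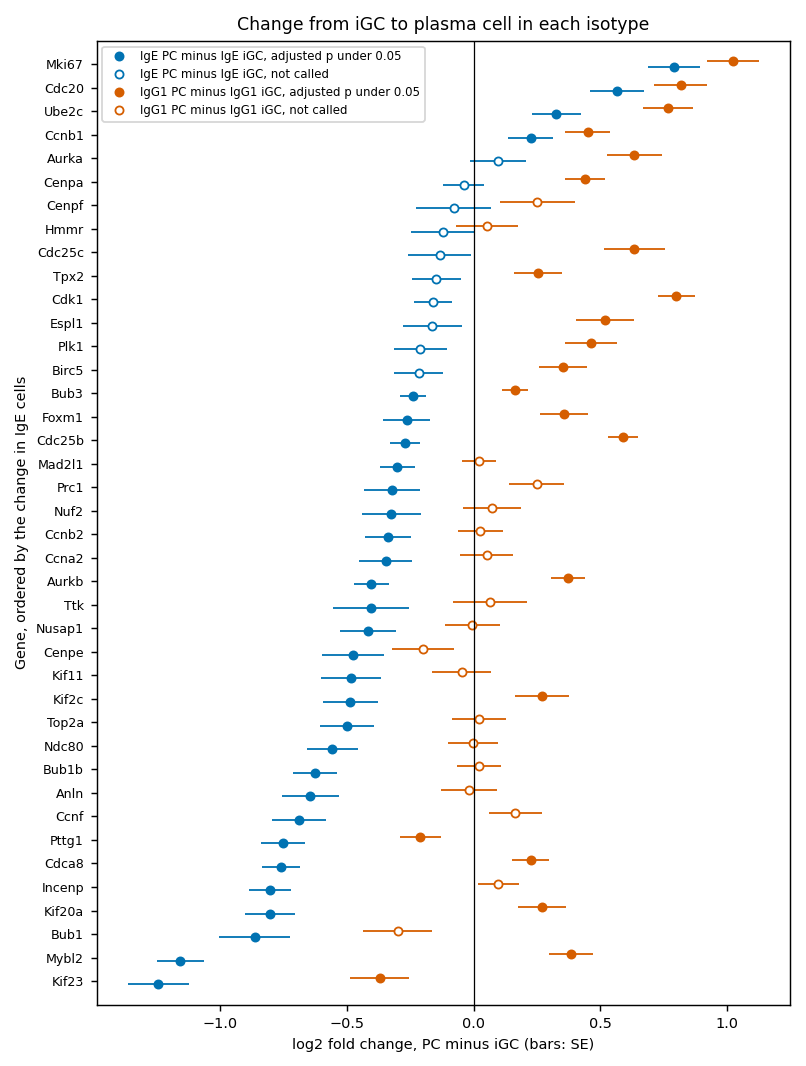
For each of the 40 genes (rows), points give the log2 fold change from iGC to plasma cell in IgE cells (blue) and IgG1 cells (orange), with bars for the SE and filled points for adjusted p under 0.05. The orange points lie to the right of the blue ones for all 40 genes, and Mki67, Cdc20, Ube2c and Ccnb1 are filled and above 0 in both.

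The difference between the 2 steps was tested as an interaction term, IgE minus IgG1. It was below 0 for all 40 genes and called for 32 of them, where 23.1% of all genes tested were called lower. None was called higher by edgeR, where 19.8% of all genes were, none was at an unadjusted p under 0.05, and DESeq2 called 29 lower and 0 higher. The median was -0.55 beside -0.062 for all genes. Mybl2 had the largest difference, -1.54 ± 0.13 (edgeR, adjusted p = 3.74e-07), followed by Kif20a, a kinesin of late mitosis, at -1.07 ± 0.14 (adjusted p = 2.16e-05). All 8 genes that moved in opposite directions were called, and so were all 8 that rose in IgG1 cells alone, both that fell in both, 13 of the 16 lower in IgE cells alone, and of the 4 that rose in both only Ube2c (-0.44 ± 0.14, adjusted p = 0.0184). Those groupings were made from the same 2 steps that the term subtracts. A call was thus largely given in advance for genes with opposite directions and is no separate support. The differences for Mki67 (-0.23 ± 0.14), Cdc20 (-0.25 ± 0.15) and Ccnb1 (-0.22 ± 0.13) did not pass the threshold. The calls of Ccna2, Kif11, Nusap1, Ccnb2 and Bub1 did not pass in at least 1 alternative fit over all libraries, and these and the calls of Tpx2 and Ube2c did not pass when some single libraries were left out, among them IgE iGC replicate 3 and IgE PC replicate 1. By role, all 6 kinase and passenger genes, both transcription regulators, 8 of 9 spindle genes, 6 of 7 entry genes, 6 of 10 kinetochore and checkpoint genes, 3 of 4 anaphase genes and 1 of 2 chromosome genes were called.

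Between the plasma cells of the 2 isotypes, 27 of 40 genes were lower in IgE PC, where 30.7% of all genes were, and none was higher by edgeR, where 27.4% of all genes were. At an unadjusted p under 0.05, 30 were lower and 0 higher, and DESeq2 called 26 lower and 0 higher. The members' median log2 fold change was -0.39 beside -0.052 over all genes, and 1 gene, Mybl2, was more than 2-fold lower. For 24 genes all 3 IgE PC libraries lay below all 3 IgG1 PC libraries, and for 16 they overlapped. The share of all genes that separated in this way was not counted. With total-count scaling 38 were called lower, the median of all genes moved to -0.30 and that of the members to -0.65.

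Mybl2, at 14.4, 16.1 and 16.7 CPM in IgE PC and 41.8, 45.9 and 49.5 in IgG1 PC, had a log2 fold change of -1.54 ± 0.092 (edgeR, adjusted p = 3.18e-09). Kif20a came second. It measured 31.7, 32.0 and 34.4 CPM in D6, 70.6, 74.6 and 79.6 in IgE iGC, 70.1, 66.5 and 65.3 in IgG1 iGC, 36.9, 41.5 and 50.3 in IgE PC and 72.1, 82.2 and 88.7 in IgG1 PC, and its log2 fold change between the plasma cells was -0.92 ± 0.10 (adjusted p = 1.25e-06). The IgE PC libraries of Kif20a lay above D6 and below the other 3 groups. Cdk1 was lower by -0.64 ± 0.073 (adjusted p = 2.89e-06), Plk1 by -0.50 ± 0.10, Birc5 by -0.42 ± 0.10 and Foxm1 by -0.45 ± 0.094, each without overlap. All 6 kinase and passenger genes were lower, with Incenp (-0.78), Cdca8, which encodes borealin (-0.74), and Aurkb (-0.67) the lowest of them.

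Not all of the 40 genes differed between the plasma cells. Cdc20 (log2 fold change -0.0042 ± 0.10), Ube2c (-0.092 ± 0.10), Ccnb1 (-0.092 ± 0.089), Mki67 (0.12 ± 0.10) and Hmmr, a spindle assembly factor (-0.017 ± 0.12), were not called and their libraries overlapped. The signs of the Cdc20, Hmmr and Mki67 values changed with scaling. By contrast, separase, Espl1 (-0.54 ± 0.11), and securin, Pttg1 (-0.72 ± 0.086), were lower. Of the 10 kinetochore and checkpoint genes 6 were lower, Bub1 (-0.44), Bub1b (-0.43), Bub3 (-0.33), Mad2l1 (-0.22), Cenpa (-0.39) and Ndc80 (-0.35), of which Bub1 and Mad2l1 lost the call without IgE PC replicate 1 or 2 or IgG1 PC replicate 2. IgG1 PC replicate 1 was the lowest of its group for 29 members, and without it 34 of the 40 were lower. Without IgE PC replicate 3, the highest of its group for 39, 33 were lower, and without IgE PC replicate 1, the lowest for 36, 23 were lower. The summed plasma cell markers were higher and the feeder markers lower in IgE PC than in IgG1 PC, as given above. Jchain made up most of the marker sum, at 8216 to 9324 TPM in IgE PC and 4920 to 6145 in IgG1 PC. Sdc1 and Irf4 were also higher in IgE PC. Prdm1 (43.3 to 50.6 and 40.9 to 57.2 TPM) and Xbp1 (928 to 962 and 953 to 1119) overlapped. The share of counts from immunoglobulin genes, with Jchain counted among them, was 19.8 to 21.5% in IgE PC and 15.3 to 21.7% in IgG1 PC. The part of these markers and shares in the differences was not tested.

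Scale matters for the plasma cells, because short and very abundant immunoglobulin transcripts take up part of every TPM total. The deposited TPM of the 40 genes summed to 1100.4, 1139 and 1160.5 in the D6 libraries, 2027, 2075 and 2373 in IgE iGC, 1887, 1845 and 1943 in IgG1 iGC, 1015, 1101 and 1202 in IgE PC and 1296, 1752 and 1791 in IgG1 PC. On this scale IgE PC overlapped D6. With immunoglobulin genes left out and TPM rescaled, the sums were 1138, 1176 and 1198 in D6, 2109, 2157 and 2469 in IgE iGC, 1947, 1902 and 2003 in IgG1 iGC, 1689.9, 1840.0 and 2090.2 in IgE PC and 2199, 2630.4 and 2713 in IgG1 PC. Every IgE PC library then lay above every D6 library. The mean TPM of IgE PC was above that of D6 for 21 genes, against 36 by TMM-scaled CPM.

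**Figure D4:**
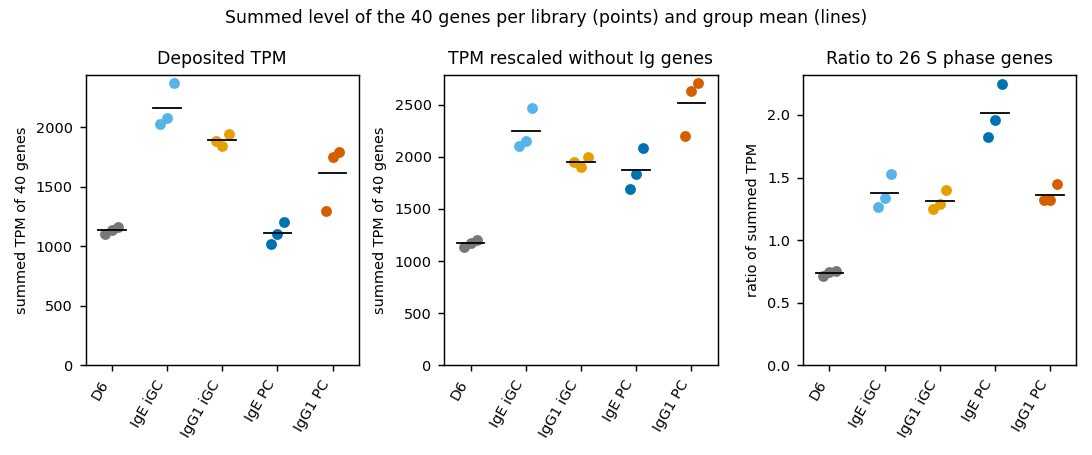
Points are the 15 libraries and lines the group means for the summed TPM of the 40 genes as deposited (left), the same after rescaling without immunoglobulin genes (middle), and the ratio to the summed TPM of 26 S phase genes (right), all from 0. IgE PC is level with D6 on the left, above it in the middle, and highest of all groups on the right, at 1.83 to 2.25.

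Genes of DNA replication gave another view of the cell cycle. Of 26 S phase genes (the MCM helicase subunits, Pcna, Rrm2 and others), 17 were lower (all genes 39.5%) and 4 higher (all genes 36.9%) in IgE PC than in D6, with a median log2 fold change of -0.55, where the 40 mitotic genes had 0.93. In IgG1 PC 19 were higher (all genes 35.9%) and 3 lower (all genes 36%), with a median of 0.45. In IgE iGC 14 were higher (all genes 32.8%) and 4 lower (all genes 36.3%), with a median of 0.21, and in IgG1 iGC 11 (all genes 32.4%) and 6 (all genes 36%), with a median of 0.14. Between the plasma cells 24 of 26 were lower in IgE PC (median -0.90, all genes 30.7% lower). From iGC to plasma cell 19 fell in IgE cells (all genes 33.6%) and 15 rose in IgG1 cells (all genes 30.1%), or 8 with total-count scaling. The ratio of the summed TPM of the 40 genes to that of the 26, in which the TPM total cancels, was 0.715 to 0.749 in D6, 1.26 to 1.53 in IgE iGC, 1.25 to 1.4 in IgG1 iGC, 1.83 to 2.25 in IgE PC and 1.32 to 1.45 in IgG1 PC. D6 was the lowest and IgE PC the highest, with no overlap with the 3 groups between them, which overlapped one another.

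**Figure D5:**
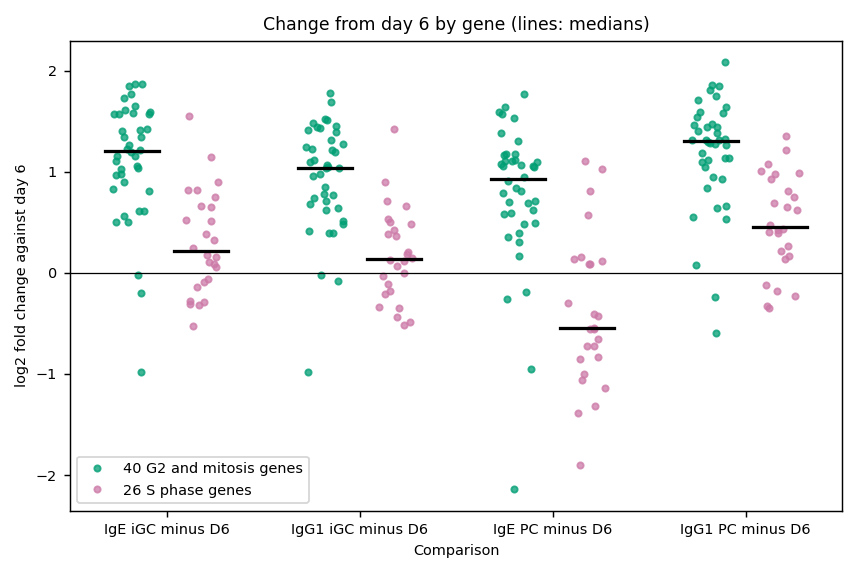
Each point is a gene's log2 fold change against D6 (vertical axis) in the 4 comparisons named on the horizontal axis, for the 40 G2 and mitosis genes (green) and 26 S phase genes (pink), with lines for medians. The 2 medians are farthest apart in IgE PC, at 0.93 and -0.55.

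Other genes of the same machinery, in lists grouped by function, can be read beside the members. Like the S phase genes above, these lists were chosen with earlier results of these data known, so they are no independent support. Of 15 further kinesin and cytokinesis genes, 14 were higher in IgE iGC, 14 in IgG1 iGC, 12 in IgE PC and 14 in IgG1 PC than in D6, and none was lower. The shares of all genes called higher in these comparisons were 32.8%, 32.4%, 36.9% and 35.9%, and the shares called lower 36.3%, 36%, 39.5% and 36%. Of 16 condensin and cohesin genes, 14, 12, 12 and 11 were higher in that order, with 1 lower, in IgG1 PC only. Ncaph, a condensin subunit, had 1.9 in IgE iGC and 2.08 in IgG1 PC. Of 21 further kinetochore and checkpoint genes, 16, 17, 12 and 16 were higher and 3, 3, 4 and 2 lower. Among those that fell were Zwint, a kinetochore linker, at -1.68, -1.61, -1.66 and -1.5, and Cenpt, an inner kinetochore protein, at -2.28 in IgE PC. With total-count scaling the kinetochore counts in IgE PC turned from 12 higher and 4 lower to 4 higher and 11 lower. Of 15 genes for the anaphase-promoting complex and its regulators, 7, 6, 5 and 7 were higher and 4, 5, 7 and 6 lower, with no common direction.

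Between the plasma cells, 10 of the 15 kinesin and cytokinesis genes and 14 of the 21 kinetochore genes were lower in IgE PC, with 0 and 1 higher, where 30.7% of all genes were lower and 27.4% higher. Of the 16 condensin and cohesin genes 5 were lower and 5 higher (8 and 2 with total-count scaling), shares near those of all genes. Cenpt fell most, at -1.47, and Stag1, a cohesin subunit, was higher at 0.82. Fbxo5, the inhibitor EMI1 of the anaphase-promoting complex, was lower at -0.89.

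The list of 10 genes that hold back entry into mitosis or division held both directions. In IgE iGC 5 were higher than in D6 (all genes 32.8%) and 4 lower (all genes 36.3%). In IgE PC 7 were higher (all genes 36.9%) and 3 lower (all genes 39.5%). Cdkn1a, the CDK inhibitor p21, was lower than in D6 in IgE iGC (-4.12), IgG1 iGC (-4.01), IgE PC (-1.96) and IgG1 PC (-2.75). Cdkn1b, the inhibitor p27, was higher in all 4, at 1.32, 1.29, 2.44 and 1.78. Cdkn1c, also of the list, was lower in all 4, at -2.30, -2.75, -2.97 and -2.46. From iGC to plasma cell, 6 of the 10 were higher (all genes 30.5%) and 3 lower (all genes 33.6%) in IgE cells. In IgG1 cells 6 were higher (all genes 30.1%) and 2 lower (all genes 29%). Cdkn1a rose by 2.16 in IgE cells and 1.25 in IgG1 cells and Gadd45a, a stress gene that can block CDK1, by 2.27 and 1.13. Gadd45b, of the same family, rose by 0.93 and 1.51, the largest rise of the list in IgG1 cells. Btg1 went the other way in this step, at -1.24 in IgE cells and -1.15 in IgG1 cells. Between the plasma cells 4 of the 10 were higher in IgE PC (all genes 27.4%) and 2 lower (5 with total-count scaling), where 30.7% of all genes were lower. Cdkn1a and Gadd45a were higher, at 0.79 and 1.24, and Gadd45b and Pkmyt1, a kinase that inhibits CDK1, were lower, at -0.75 and -0.63. The other list held 18 genes of the MuvB complex, the pocket proteins and the E2F family. Of these, 8 were lower (all genes 30.7%) and 6 higher (all genes 27.4%) in IgE PC than in IgG1 PC. Tfdp1, the partner of E2F factors, was the lowest (-0.87), then E2f1 (-0.85), and Lin54, the MuvB subunit that binds the homology region, was the highest (0.72).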

How the data were processed

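RNA of 15 mouse B cell libraries in 5 groups of 3 was analysed from 1 table. The submitters' processing notes name cutadapt 1.9.1, STAR 2.5.2a, RSEM 1.3.0, DESeq2 1.12.3 and GRCm38, without their roles, and the annotation, filters and strand setting are not given in the sources used here. Per the file headers, the table holds the authors' RSEM expected counts per gene, which were not normalized, and the authors' TPM, which RSEM scales by effective transcript length and to the same total in each library. Table columns were matched to libraries by name.

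The expected counts were first rounded to whole values. Genes passing filterByExpr (minimum count 10, minimum total 15) were scaled by TMM and fitted with edgeR 4.0.16 (limma 3.58.1, R 4.3.3) by the robust quasi-likelihood test over all 15 libraries with no replicate term, which left 10 residual degrees of freedom. P-values were adjusted over all 15692 genes tested by the Benjamini-Hochberg method, with a threshold of 0.05. The SE of a log2 fold change was approximated from the fold change and the root of its F statistic. Members were counted in 9 comparisons. The same test was run on simulated counts with 200 genes changed between IgE PC and IgG1 PC, equally up and down. In the data 4303 genes were called higher and 4816 lower there, so the simulation cannot check the scaling. The alternatives were total-count scaling, immunoglobulin genes left out, DESeq2 1.42.0, no count filter, only the groups compared in the fit, the replicate number as a block, and each library left out in turn. Wherever immunoglobulin genes were counted or left out, Jchain was included with them.

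The members and lists were chosen with earlier results of these data known. Values in every library are given for Cdk1, Ccnb1, Plk1, Cdc20, Birc5, Mki67, Top2a, Foxm1 and Mybl2 and for up to 2 called members with the largest rise and fall in a comparison. Members against the majority direction are named, as are up to 3 called genes of each other list with the largest change. Gene positions are from GENCODE vM21 and promoters from RefSeq, both on GRCm38. With about 17740900 to 54068000 counts a library, precision is limited most for members with few reads, such as Cdc25c. One B cell marker and the sum over the list that holds it are not reported here.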

Additional observations from a re-analysis of the deposited data

Results flagged for a closer look

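The change from iGC to plasma cell differed between IgE and IgG1 cells for 32 of the 40 genes by the test of the difference itself (edgeR quasi-likelihood, Benjamini-Hochberg adjusted over all genes tested). The values are the IgE log2 change minus the IgG1 log2 change. For the genes for entry into mitosis, the differences were Cdk1 -0.96, Ccna2 -0.40, Ccnb2 -0.36, Ccnf -0.85, Cdc25b -0.86 and Cdc25c -0.77. For the transcription regulators, the differences were Foxm1 -0.62 and Mybl2 -1.54. For the kinases and the passenger complex, the differences were Plk1 -0.68, Aurka -0.54, Aurkb -0.77, Birc5 -0.57, Incenp -0.90 and Cdca8 -0.98. For the kinetochore and the checkpoint, the differences were Bub1 -0.56, Bub1b -0.65, Bub3 -0.40, Mad2l1 -0.32, Cenpa -0.48 and Ndc80 -0.55. For the spindle and cytokinesis, the differences were Kif11 -0.44, Kif20a -1.07, Kif23 -0.87, Kif2c -0.75, Tpx2 -0.40, Nusap1 -0.41, Prc1 -0.57 and Anln -0.62. For the anaphase-promoting complex and separase, the differences were Ube2c -0.44, Espl1 -0.68 and Pttg1 -0.54. For chromosome structure, the difference was Top2a -0.52. All 32 were below 0, each from 3 libraries a group, and 23.1% of all genes tested were called in this direction. No group had 4 or more libraries, so no search for single outlying libraries was made.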

How the results depend on the processing

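Several counts of called members moved by more than 1.5 times under an alternative, and the cause was not tested. With total-count scaling, 1 member was higher in IgE PC than in IgE iGC (4 in the analysis reported), 9 were higher and 6 lower in IgG1 PC than in IgG1 iGC (20 and 2), 2 were lower in IgG1 iGC than in D6 (1) and 6 were lower in IgE PC than in D6 (3). Members higher in IgE iGC than in IgG1 iGC numbered 5 by DESeq2, 4 with no count filter and 6 with only the groups compared (2). In that comparison the analysis reported called 1.99% of all 15692 genes higher and 1.88% lower. Calls over all genes, both directions together, also rose by DESeq2, to 922, and with only the groups compared, to 1503. With no count filter they fell to 521. Members lower in IgG1 iGC than in D6 numbered 2 by DESeq2. Members lower in IgE iGC than in D6 (2), and in IgG1 PC than in D6 (2), became 1 with immunoglobulin genes left out, with no count filter and with only the groups compared, and the fall from IgG1 iGC to IgG1 PC was called for 1 in the last 2 of these. The replicate block gave 31 lower for 27 in the plasma cell comparison and 33 for 32 in the interaction. Whether the replicate numbers pair libraries is not stated. Over all genes tested, same-numbered deviations had a mean correlation of -0.0146, and 0 single correlations were over 0.1. Among the members, replicate 3 was the most often highest library in every group. It was so for 20 genes in D6, 38 in IgE iGC, 22 in IgG1 iGC, 39 in IgE PC and 20 in IgG1 PC, so pairing was not settled.

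Leaving out 1 library at a time gave 23 to 34 members lower in IgE PC than in IgG1 PC and 25 to 36 for the interaction. From iGC to plasma cell it gave 21 to 31 lower and 2 to 4 higher in IgE cells and 16 to 22 higher and 1 to 3 lower in IgG1 cells. Members higher in IgE iGC than in IgG1 iGC numbered 1 to 2, as did those lower than D6 in IgE iGC and in IgG1 PC. Total-count scaling turned Mki67 between the plasma cells to -0.14, Ccnb1 and Ube2c from IgE iGC to IgE PC to -0.25 and -0.15, and Anln, Incenp, Mad2l1, Ttk, Cenpf and Kif20a in IgE PC against D6 to -0.37, -0.18, -0.23, -0.044, -0.056 and -0.14. Between the plasma cells Cdc20 turned to 0.048 with immunoglobulin genes left out and 0.043 by DESeq2 and ranged from -0.13 to 0.10 without 1 library, and Hmmr turned to 0.034 and 0.031 and ranged from -0.15 to 0.10.

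The mean summed TPM moved without immunoglobulin genes to 1170.6 in D6, 1950.4 in IgG1 iGC, 1873.4 in IgE PC and 2514.2 in IgG1 PC, and without Top2a and Mki67 to 963.5 in D6, 1798 in IgE iGC, 1578.9 in IgG1 iGC, 874.6 in IgE PC and 1310.9 in IgG1 PC.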
